A study of Mus musculus with 6 samples.

Results

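Hilpda, Plin2, Plin4, Cidec, Abhd5, Pnpla2, Lipe, Aqp7, Fabp4 and Fabp5 encode proteins that coat lipid droplets, break down stored triglyceride or carry its products out of the fat cell. They are 10 of the 13409 genes with a named probe on the arrays, and 11 probes carry their symbols. They were picked by name with earlier results of the same arrays known, from the contrast described here, so their ratios are given as a description with no test. Epididymal white fat came from male C57BL/6J mice aged 12 weeks and injected with CL-316,243, a beta3-adrenergic agonist, at 1 mg per kg body weight, or with saline, and was taken at 3 hr. The labels spell the agonist CL316,246 in 1 place. Each treatment is 1 pool, made from the RNA of 6 mice, and 6 two-colour arrays carry the CL-316,243 pool beside the saline pool. Channel 2 held CL-316,243 on arrays 4, 5 and 6, and channel 1 held it on arrays 1, 2 and 3. The same pools were hybridised again on each array, so each p-value covers array-to-array spread only, and the spread between mice is unknown.

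A fat cell keeps its triglyceride in a droplet coated by perilipins and CIDE proteins. Catecholamines act through beta-adrenergic receptors and protein kinase A to free the lipase co-activator ABHD5 from the droplet coat. ABHD5 then activates the triglyceride lipase ATGL, which Pnpla2 encodes, and hormone-sensitive lipase, which Lipe encodes, takes the next step. HILPDA, a small droplet protein, binds and inhibits ATGL. Glycerol leaves through the channel that Aqp7 encodes, and FABP4 and FABP5 bind fatty acids in the cytosol.

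RefSeq (GRCm38.p6) gave promoter windows, 250 bases before to 50 after a transcript start, for 8 of the 10 genes; Fabp4 and Fabp5 were not matched. Shown are those of Hilpda and Plin2, which had the largest positive ratios, and of Abhd5, which was below 0 on every array. Capitals mark matches on either strand to ACGTG or GCGTG, cores of hypoxia response elements, to TGACG, the cAMP response element core, or to CACGTG, an E-box that contains ACGTG on both strands. The Hilpda window belongs to the downstream of its starts in RefSeq and lies at chr6:29272376-29272675 on the plus strand. That of Plin2 lies at chr4:86670010-86670309 on the minus strand, and that of Abhd5 at chr9:122351366-122351665 on the plus strand.
Hilpda: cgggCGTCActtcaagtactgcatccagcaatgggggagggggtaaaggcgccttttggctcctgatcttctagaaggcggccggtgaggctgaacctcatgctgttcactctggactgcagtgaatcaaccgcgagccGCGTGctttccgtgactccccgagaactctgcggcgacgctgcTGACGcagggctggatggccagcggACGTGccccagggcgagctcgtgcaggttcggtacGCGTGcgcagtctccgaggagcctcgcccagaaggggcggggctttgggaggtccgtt
Plin2: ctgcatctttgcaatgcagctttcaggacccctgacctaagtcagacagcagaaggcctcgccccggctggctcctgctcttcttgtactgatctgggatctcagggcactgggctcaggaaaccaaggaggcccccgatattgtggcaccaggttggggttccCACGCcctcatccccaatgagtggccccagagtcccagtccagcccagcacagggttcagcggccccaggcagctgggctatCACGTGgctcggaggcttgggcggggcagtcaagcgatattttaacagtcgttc
Abhd5: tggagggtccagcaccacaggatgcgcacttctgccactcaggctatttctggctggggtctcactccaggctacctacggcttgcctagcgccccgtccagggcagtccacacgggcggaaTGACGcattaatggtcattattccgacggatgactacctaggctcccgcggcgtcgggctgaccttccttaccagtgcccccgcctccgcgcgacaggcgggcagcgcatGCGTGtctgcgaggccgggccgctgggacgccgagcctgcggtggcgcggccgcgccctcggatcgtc

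The Hilpda window held ACGTG beginning 43 bases before the start, GCGTG at 111 and 8 bases before it, and TGACG at 68 bases and, on the other strand, at 246 bases before it. The window of its upstream start overlaps this one and held 2 of the same sites. They are the GCGTG at 111 bases and the TGACG at 246 bases. Counted from the upstream start, that GCGTG begins at base 28 after it and that TGACG at 108 bases before it. Plin2 had a CACGTG from 4 bases before its start and GCGTG on the other strand at 86 bases. Abhd5 had GCGTG at 18 bases and TGACG at 128 bases before its start. In 1 of its windows Lipe had CACGTG at 155 bases and GCGTG on the other strand at 75 bases before the start. Both Cidec windows held GCGTG, and none of these motifs was found in the windows of Aqp7, Pnpla2 and Plin4. Of all 32851 promoter windows, 19.6% held ACGTG, 32.4% GCGTG, 20.8% TGACG and 7.15% CACGTG, so single matches are common. The full cAMP response element, TGACG continued by TCA, stood in 1.79% of all windows, and a pair of AGGTCA sites spaced by 1 base, the perfect PPAR response element, in 0.04%. Neither was found in a window of these genes. A match is a string of letters, and binding was not measured here.

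The deposited values are log ratios of the pools, taken as log2. The sources used here do not say which pool is the numerator, and "higher" and "lower" below mean in the numerator pool, so that each direction turns if the numerator is saline. Signs are as deposited and were not turned for either orientation. Natural logs would make every value 1.44 times larger. Columns had lost rows, from 1 on array 6 to 724 on array 2, and each was placed on probe numbers before it was read. Placement kept 92.2% to 99.8% of probes on the arrays other than array 2 and 66.5% on array 2. Arrays of 1 orientation then correlated over probes at a mean Spearman rho of 0.28 (range 0.08 to 0.42). For arrays of opposite orientation it was 0.11 (0 to 0.17), against 0 for rows as deposited. Placement itself uses and raises likeness between arrays, so nothing is read from this rise. Of the 66 possible values of the 11 probes 59 were kept. All 59 were read from the same row when the placement was repeated without using these probes, and 57 of them again met the posterior minimum. In that repeat the same values still counted wherever a placement set them against other probes, so it is not fully independent of them.

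In bulk fat, fewer cells of a type and less RNA per cell cannot be told apart. Ratios carry no levels, so the labelled tissue could not be checked by the abundance of its markers. The markers below were chosen with earlier results of these arrays known. Markers of seminal vesicle and epididymis, which adjoin this depot, were lower for 5 of the 7 tested (limma adjusted p at most 0.0343). Those 5 had ratios between -5.47 and -1.16. Sva (-0.66) and Spink1 (-0.09) did not pass an adjusted p of 0.05. The part of these tissues in the ratios of the droplet genes was not tested. Of 7 tested adipocyte markers none passed the same threshold, and their median ratio was 0.34 (range -0.68 to 0.76); 4 had an unadjusted p under 0.05, as had 18.3% of all genes tested. Of 7 macrophage, 6 stromal, 6 skeletal muscle and 4 lymphocyte markers none passed, and 1, 1, 0 and 0 had an unadjusted p under 0.05, beside the same 18.3%. Of 6 endothelial markers Tek passed and was lower (-0.59), and of 5 brown fat markers Dio2 (1.18) and Ppargc1a (0.77) passed and were higher. Over all genes tested 1.89% passed and were higher and 1.22% lower. An unadjusted p under 0.05 was found for 1 endothelial and 4 brown fat markers, and all 5 brown fat ratios were above 0.

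Among the genes of the droplet surface, Hilpda, Plin2, Plin4 and Cidec were all higher, on every array with a value. Hilpda had log2 ratios of 4.05, 3.57 and 2.63 on arrays 4, 5 and 6, which carried the CL-316,243 pool in channel 2. It had 3.72, 3.92 and 3.70 on arrays 1, 2 and 3, with that pool in channel 1. Every array was far above 0, and array 6 stood lowest. The mean over the orientations was 3.60 ± 0.21 (SE, n = 6 arrays), a 12.1-fold ratio, which ranked 4 from the top of the 12562 genes tested.

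The rows beside that of Hilpda were unlike its own. The 12 values in the rows just before and after its placed row lay between -0.78 and 0.26. The mean over arrays was 3.60 in the placed row, against -0.29 in the row before and 0.09 in the row after. In the plot of neighbouring rows Hilpda forms a single peak on all arrays.

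**Figure D1:**
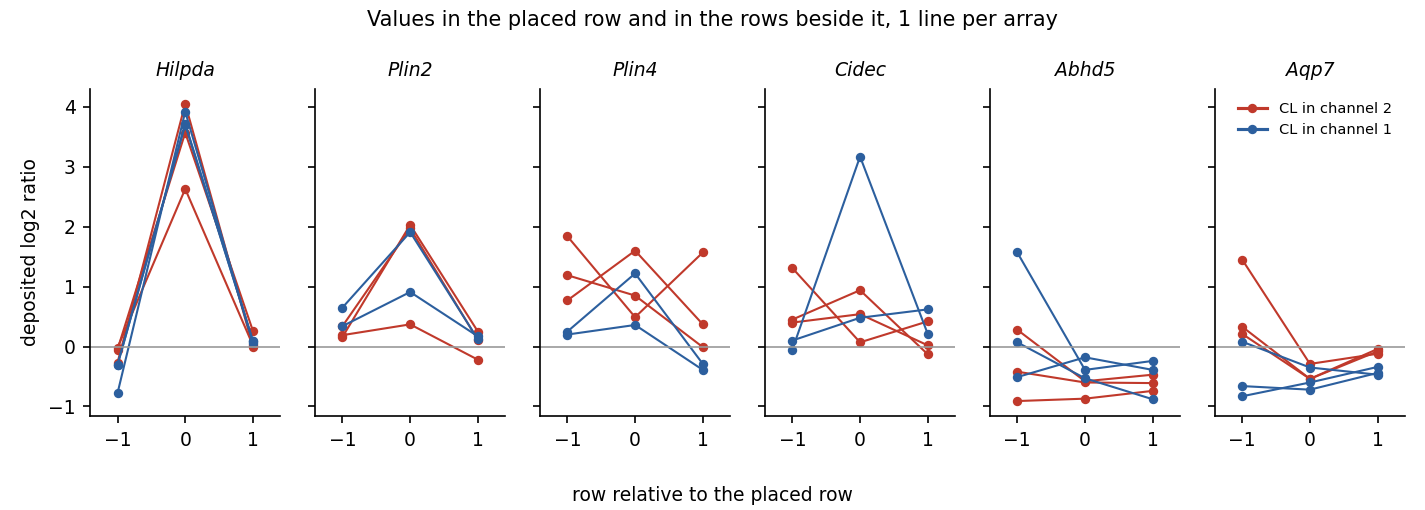
Deposited log2 ratio (vertical axis) in the row where placement put a gene and in the rows just before and after it (horizontal axis), 1 line per array with a kept value, red for the CL-316,243 pool in channel 2 and blue for channel 1. Hilpda reaches 2.63 to 4.05 in its own row and stays between -0.78 and 0.26 beside it, while the rows after Abhd5 are as low as its own.

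Plin2 encodes perilipin 2, a coat protein found on droplets of most cell types. Its ratios were 0.37, 1.97 and 2.03 on arrays 4, 5 and 6 and 0.91 and 1.91 on arrays 1 and 3; array 2 gave no kept value. The lowest and the highest value both came from the channel 2 orientation, so the orientations overlapped fully. The mean was 1.43 ± 0.40 (SE, n = 5), or 2.70-fold, rank 42 from the top. The placed row averaged 1.44, against 0.34 in the row before and 0.09 in the row after.

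Plin4, a perilipin most abundant in white fat, had ratios of 0.49, 0.85 and 1.60 on arrays 4, 5 and 6 and 1.22 and 0.36 on arrays 1 and 3. All 5 were above 0, over a range wider than the mean itself (0.89 ± 0.26 SE, 1.85-fold). The row before its placed row averaged 0.85, close to its own 0.90, so a shift of 1 row would leave a like value. Plin4 could not be tested with the higher posterior minimum of 0.99.

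Cidec encodes the CIDE protein that promotes fusion of droplets into a single large one. It had ratios of 0.54, 0.07 and 0.94 on arrays 4, 5 and 6 and 0.48 and 3.17 on arrays 1 and 3. Array 3 stood far above the others, and array 5 was near 0. The mean was 1.17 ± 0.53 (SE, n = 5), 2.25-fold, and it fell to 0.50 without array 3, below the 1.5-fold size used here.

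**Figure D2:**
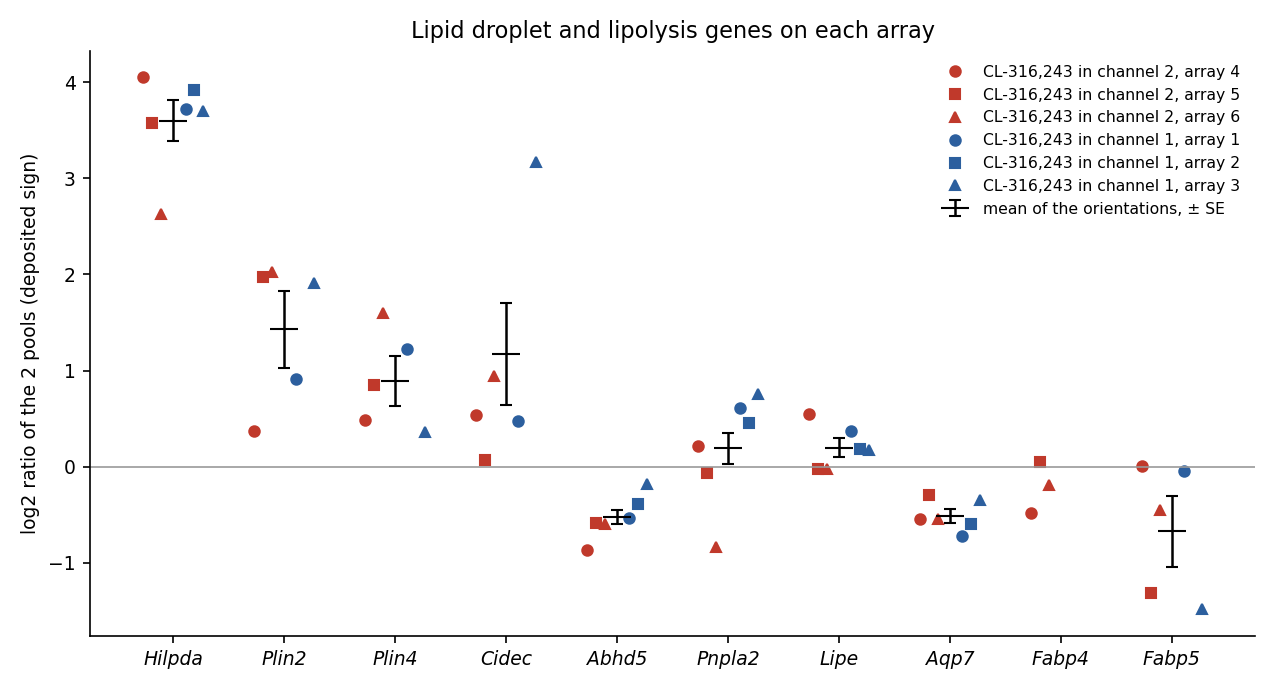
Log2 ratio of the 2 pools on each array (vertical axis, deposited sign) for the 10 genes (horizontal axis), red for the CL-316,243 pool in channel 2 and blue for channel 1, with the mean of the orientations ± SE in black. Hilpda lies between 2.63 and 4.05, Cidec has 1 array at 3.17, Abhd5 and Aqp7 lie below 0 on all 6 arrays, and Fabp4 has values on 3 arrays only.

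Among the lipases and their activator, Abhd5 alone lay on 1 side of 0 on every array. Abhd5 encodes the co-activator of ATGL, also known as CGI-58. Its ratios were -0.87, -0.58 and -0.60 on arrays 4, 5 and 6 and -0.53, -0.39 and -0.18 on arrays 1, 2 and 3. All 6 were below 0, and those of the channel 2 orientation were all the lower ones. The mean was -0.52 ± 0.07 (SE, n = 6), a 1.44-fold difference, rank 311 from the bottom. The row after its placed row averaged -0.56 and the row before 0.01, so the value of Abhd5 would be much the same 1 row later.

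Pnpla2 was read by 2 probes. The probe of AK002826 gave 0.49, -0.10 and -1.15 on arrays 4, 5 and 6 and 0.73, 0.59 and 1.35 on arrays 1, 2 and 3. The probe of AK003207 gave -0.05, -0.04 and -0.51 on arrays 4, 5 and 6 and 0.49, 0.34 and 0.16 on arrays 1, 2 and 3. Both probes were above 0 on all channel 1 arrays and averaged below 0 in the channel 2 orientation. The gene's mean was 0.19 ± 0.16 (SE, n = 6), from -0.23 in the channel 2 orientation and 0.61 in the channel 1 orientation.

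Lipe had ratios of 0.55, -0.02 and -0.02 on arrays 4, 5 and 6 and 0.37, 0.18 and 0.17 on arrays 1, 2 and 3. No array reached the 1.5-fold size in log2 (0.58), and 2 of 6 fell just below 0. Its mean was 0.20 ± 0.10 (SE, n = 6), a 1.15-fold ratio.

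Of the genes that handle the products of lipolysis, Aqp7 was lower on all 6 arrays. Aqp7 encodes aquaglyceroporin 7, the glycerol channel of fat cells. Its ratios were -0.54, -0.29 and -0.54 on arrays 4, 5 and 6 and -0.72, -0.60 and -0.35 on arrays 1, 2 and 3. These span little, and the orientations overlap. The mean was -0.51 ± 0.07 (SE, n = 6), a 1.42-fold difference, rank 348 from the bottom.

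Fabp5, the epidermal form of the fatty acid binding proteins, gave 0.01, -1.31 and -0.45 on arrays 4, 5 and 6 and -0.04 and -1.48 on arrays 1 and 3. In each orientation 1 array was near 0 and 1 was below -1. The mean was -0.67 ± 0.37 (SE, n = 5), and it came to -0.31 without array 3 and -1.03 without array 1. Fabp4, the main fatty acid binding protein of fat cells, had kept values on arrays 4, 5 and 6 only, of -0.48, 0.05 and -0.19. On arrays 1, 2 and 3 the placement runs gave 2 rows for it, with values of 0.28 or 0.66, 1.03 or 1.47, and 0.66 or 1.32. Those values were not used, so Fabp4 was left out of the fit.

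Of the 9 genes in the fit, 6 had ratios above 0 and 3 below, with a median of 0.20, against a median of -0.01 over all 12562 genes. The size rule asked for a mean of at least 1.5-fold and 1 sign on every array with a value. Hilpda, Plin2, Plin4 and Cidec met it, 4 of 9, beside 3.26% of all genes tested (2.08% for higher alone); the genes were picked from this contrast, so nothing is read from that share. Without array 3 the count was 3, since Cidec no longer met it. At 2-fold it was 3 as well, with Plin4 below that size. It was 5 without array 4 and 6 with the channel 1 arrays only. Abhd5 and Aqp7 kept 1 sign on every array but stayed under 1.5-fold if the values are log2. Were they natural logs, their ratios would be -0.76 and -0.73 in log2, past that size, and the count would be 6. In all, 6 of 9 genes lay on 1 side of 0 on every array with a value, beside 13.6% of all genes.

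The comparison that the choice of genes did not use is that of the 2 orientations. It asks whether a ratio depended on which channel held the CL-316,243 pool, and was tested with limma over all genes. None of the 9 genes passed an adjusted p of 0.05 for the difference between orientations, and Pnpla2 alone had an unadjusted p under 0.05. Over all genes 1 passed, 0.00796%, and 1304 (10.4%) had an unadjusted p under 0.05. The difference for Pnpla2, channel 2 minus channel 1, was -0.84 ± 0.32 (SE, limma adjusted p = 0.414), from means of -0.23 and 0.61. Those of Abhd5 were -0.68 and -0.37 (difference -0.32 ± 0.14, adjusted p = 0.595), and of Cidec 0.52 and 1.82 (-1.30 ± 1.05, adjusted p = 0.518). Hilpda averaged 3.42 in the channel 2 orientation and 3.78 in the channel 1 orientation, a difference of -0.36 ± 0.42 (adjusted p = 0.699). For Plin2 the difference was 0.04 ± 0.80, for Plin4 0.19 ± 0.53, for Aqp7 0.10 ± 0.14, for Lipe -0.07 ± 0.20 and for Fabp5 0.18 ± 0.73. The orientations of Pnpla2 and of Abhd5 did not overlap, 2 of 9 genes, beside 22.6% of all genes tested. The SEs use each gene's own spread over arrays, while the limma p-values also draw on the spread of all genes. A dependence on channel was not detected for these genes and is not shown to be absent. The orientations are also arrays 4 to 6 against arrays 1 to 3, so channel and array set cannot be told apart. Arrays 2 and 3, which had the lowest array weights in limma (0.5 and 0.61), both belong to the channel 1 orientation.

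**Figure D3:**
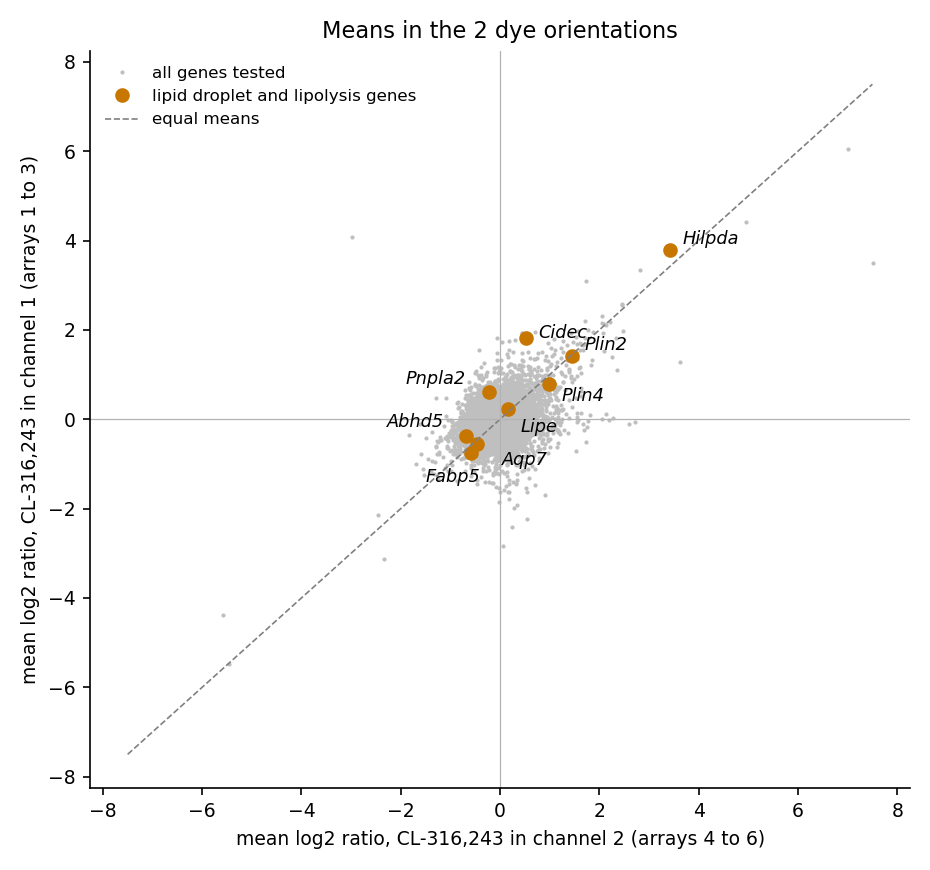
Mean log2 ratio with the CL-316,243 pool in channel 2 (horizontal axis) and in channel 1 (vertical axis) for all 12562 genes tested (grey) and the 9 lipid droplet and lipolysis genes in the fit (orange), with a dashed line of equal means. Hilpda, Plin2 and Plin4 lie near the line, Cidec above it at 1.82 against 0.52, and Pnpla2 on both sides of 0 (-0.23 and 0.61).

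Other genes of the same pathways were taken from 7 lists by function. The lists were chosen with earlier results of these arrays known, so their p-values and shares are not independent of that choice. Of 118 genes listed 94 had a probe and 85 were tested, of which 4 were higher and 2 lower at a limma adjusted p under 0.05. That is 7.06% of them, beside 3.11% of all genes (238, or 1.89%, higher and 153, or 1.22%, lower of 12562). An unadjusted p under 0.05 was found for 24 of the 85 and for 2293, or 18.3%, of all genes, the share to set beside each list's count below. 
None of 9 other droplet coat and droplet-associated genes passed, and none had an unadjusted p under 0.05. Their ratios lay between -0.39 and 0.06. The 4 higher droplet genes were picked with this contrast known, so that they lay above this list is not a result. Hsd17b11, a dehydrogenase found on droplets, averaged -0.39 ± 0.24 (adjusted p = 0.303, n = 5). Plin3, a perilipin of many tissues, averaged -0.15 ± 0.15 (adjusted p = 0.622). Plin1, the main perilipin of fat cells, had no named probe, nor had Adrb3, the receptor that CL-316,243 acts on, or G0s2, an ATGL inhibitor.

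None of 10 other lipases and lipase regulators passed, and 3 had an unadjusted p under 0.05. Lpl, which releases fatty acids from circulating triglyceride, had ratios of 0.16, 0.28 and 0.82 on arrays 4, 5 and 6 and 0.37, 0.65 and 2.29 on arrays 1, 2 and 3. As for Cidec, array 3 was the highest. The mean was 0.76 ± 0.32 (adjusted p = 0.111). Angptl4, an inhibitor of lipoprotein lipase, averaged -0.33 ± 0.13 (adjusted p = 0.205). Mgll, which cleaves the last fatty acid from monoglyceride, had -0.91, -0.37 and 0.54 on arrays 4, 5 and 6 and 0.90, 0.82 and 0.49 on arrays 1, 2 and 3. Like Pnpla2, it lay above 0 on all channel 1 arrays and averaged below 0 (-0.25) in the channel 2 orientation.

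Of 13 genes of the hormonal control of lipolysis none passed and 5 had an unadjusted p under 0.05, with a median ratio of 0.28. Cavin1, a caveolar coat protein, was above 0 on 6 of 6 arrays (0.50 ± 0.15, adjusted p = 0.0859). Prkaca, the catalytic alpha subunit of protein kinase A, averaged 0.55 ± 0.25 over 4 arrays (adjusted p = 0.168), with 1.16 in the channel 2 orientation and -0.06 in the channel 1 orientation.

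Both genes that passed in the list of fatty acid binding, uptake and activation, 2 of 14, encode acyl-CoA synthetases, and both were higher. In this list 5 had an unadjusted p under 0.05. Acsl4 had 1.14, 0.77 and 0.48 on arrays 4, 5 and 6 and 0.75, 0.90 and 0.61 on arrays 1, 2 and 3. Its mean was 0.78 ± 0.10, or 1.71-fold (adjusted p = 0.00803), and it passed with any 1 array left out. Acsl5 averaged 0.49 ± 0.08 (adjusted p = 0.0387) and was above 0 on all 6 arrays, but did not pass once any 1 array was left out (adjusted p up to 0.164). Dbi, an acyl-CoA binding protein, averaged 0.61 ± 0.36 and Fabp1 -0.28 ± 0.14, and neither passed.

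Of 8 genes of glycerol and water transport and glycerol use none passed and 2 had an unadjusted p under 0.05. Gpd1, which makes the glycerol 3-phosphate used for triglyceride, was above 0 on 6 of 6 arrays (0.53 ± 0.16, adjusted p = 0.0743). Pck1, a key enzyme of glyceroneogenesis, averaged -1.28 in the channel 2 orientation and 0.47 in the channel 1 orientation, with a mean of -0.41 ± 0.36 (adjusted p = 0.44).

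Of 18 hypoxia-inducible genes, the kind to which Hilpda belongs, 1 was higher and 1 lower, with a median of 0.09. In this list 4 had an unadjusted p under 0.05. Hk2, a hexokinase, had 0.65, 0.48 and 1.19 on arrays 4, 5 and 6 and 0.65, 0.23 and 1.46 on arrays 1, 2 and 3 (mean 0.78 ± 0.21, adjusted p = 0.0391). It no longer passed without array 1, 3, 4, 5 or 6. Bnip3l, a mitophagy receptor, had -1.11, -1.42 and -1.03 on arrays 4, 5 and 6 and -0.29, -0.72 and -0.35 on arrays 1, 2 and 3 (mean -0.82 ± 0.09, adjusted p = 0.00505), and passed with any 1 array left out. Ddit4 averaged 0.47 ± 0.11 (adjusted p = 0.07) and Pgk1 0.39 ± 0.22 (adjusted p = 0.282).

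Of 13 PPAR receptors, coactivators and target genes, 1 was higher and 1 lower, and 5 had an unadjusted p under 0.05. Ppargc1a, the coactivator PGC-1alpha, had 1.63, 0.63 and 0.56 on arrays 4, 5 and 6 and 0.97, 0.64 and 0.19 on arrays 1, 2 and 3 (mean 0.77 ± 0.21, adjusted p = 0.0369). It still passed without array 3 and no longer without any 1 of the other arrays. Ehhadh, a peroxisomal enzyme of fatty acid oxidation, averaged -1.34 ± 0.34 over 5 arrays (adjusted p = 0.0201), all below 0, and no longer passed without array 1, 4 or 5. Pparg was below 0 on 6 of 6 arrays (-0.68 ± 0.21, adjusted p = 0.064), and Ppara averaged 0.72 ± 0.40 (adjusted p = 0.194). Several of the genes described here, among them Plin2, Plin4, Aqp7 and Fabp4, are themselves known PPAR targets. A part of PPAR in their ratios was not tested.

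**Figure D4:**
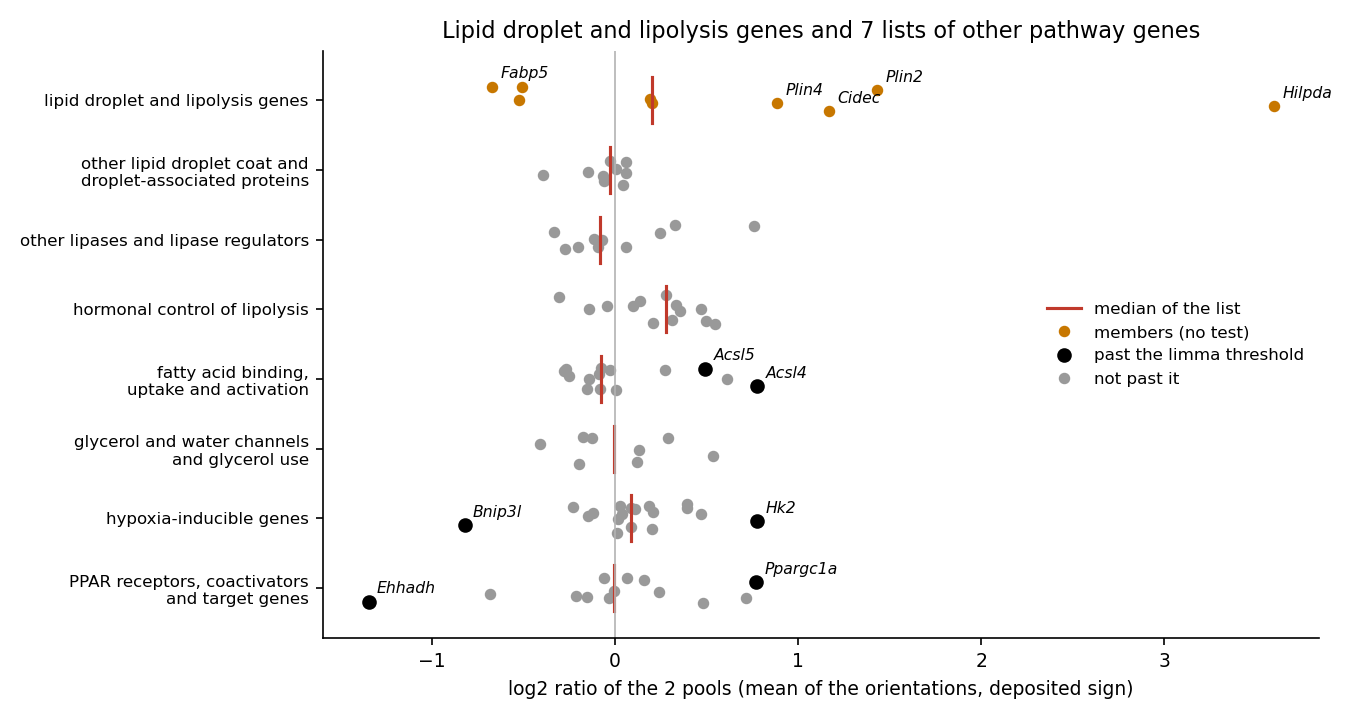
Log2 ratio of the 2 pools (horizontal axis, mean of the orientations) of the 9 lipid droplet and lipolysis genes (orange, top) and of 7 lists of other pathway genes, with a red bar at each median and black points for genes past the limma threshold. Hilpda lies at 3.60, the 9 other droplet-associated genes lie between -0.39 and 0.06, and the black points are Acsl4, Acsl5, Hk2 and Ppargc1a above 0 and Bnip3l and Ehhadh below.

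Over the 8062 other genes with values on all 6 arrays, the one whose ratios lay nearest to those of Hilpda was Noct, at a Euclidean distance of 1.81 log2 units. Noct had 3.22, 3.53 and 1.73 on arrays 4, 5 and 6 and 3.73, 3.91 and 2.37 on arrays 1, 2 and 3. Both genes were lowest on array 6, and on array 3 Noct had 2.37 against 3.7 for Hilpda. Rtl8c followed at 3.10, with a mean ratio of 2.52, and Tnfrsf12a at 3.19, with 2.41. These distances describe 6 measurements of 1 pair of pools. They count the size of the ratios, so only genes with large ratios can lie near Hilpda, and a shared pattern over arrays is not shown.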

How the data were processed

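RNA of 6 mice per treatment, 1 pool for CL-316,243 and 1 for saline, was compared on 6 two-colour spotted arrays. Per the labels' protocols, cDNA carried fluorescein (Cy3) or biotin (Cy5), tyramide signal amplification followed, slides were read on a ScanArray 5000 and quantified with QuantArray 3.0. The authors deposited log ratios, taken here as log2, after a scale factor between dyes and LOWESS in their own program, per the labels. The sources used here give no log base, numerator, dye per channel, background correction or spot filter; with no intensities used here, the signal behind a ratio is unknown.

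Values were empty only at column ends, which the planned design had not foreseen. A hidden Markov model that allows only lost spots assigned the rows to the 19200 probe numbers, over 7 rounds and 4 orders of arrays. A value was kept where its posterior was at least 0.95 and all 4 orders gave the same row. The placement uses likeness between arrays and raises it. Placement and limma were also run on simulated data. The simulated columns lost the spots that the placement had inferred for the real ones, so nothing is read from that run about the real placement. Genes took the mean of their probes, through the platform annotation (14717 probes, 14711 with 1 symbol). Genes with at least 2 values per orientation were fitted with limma 3.58.1 (R 4.3.3), orientation coded -1 and 1, with Benjamini-Hochberg adjustment over 12562 genes.

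The genes, the lists and the markers were chosen with earlier results of these data known. Named list genes are those past an adjusted p of 0.05 and, per list, the 2 largest of the rest, besides Mgll, Plin1, Adrb3, G0s2 and the 3 genes nearest to Hilpda. List symbols were matched through RefSeq synonyms for 2 pathway genes. Alternatives covered the posterior, a placement without the described probes, rows as deposited, arrays or orientations left out, array scaling and weights, probes per gene, the number of values required and the size rule. Proteins were not analysed here.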

Additional observations from a re-analysis of the deposited data

Results flagged for a closer look

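The lowest array of Hilpda, array 6 at 2.63, stood apart from the other 5 (3.57 to 4.05): its gap to the next was 0.67 of the whole range. Without it the mean of Hilpda was 3.79. The highest array of Cidec, array 3 at 3.17, stood apart from the other 4 (0.07 to 0.94), with a gap of 0.72 of the range, and without it the mean was 0.50. Chance marks about 5% of such groups, and 9 genes were looked at. Of the genes nearest to Hilpda, Noct (1.73) and Tnfrsf12a (0.77) were also lowest on array 6, and Rtl8c (2.32) was not. Array 3 was also the highest for Lpl (2.29), and was not for Mgll (0.49). Whether these arrays differ in the same way over many genes was not tested.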

How the results depend on the processing

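With rows as deposited, without placement, Hilpda came to 0.05, Abhd5 to -0.23, Aqp7 to 0.02, Cidec to -0.27 and Pnpla2 to -0.35. Pnpla2 also turned sign with channel 2 only (-0.23); Cidec ranged from 0.50 to 1.84 and Fabp5 from -1.03 to -0.31 without 1 array. Rows as deposited gave 0 higher and 0 lower genes past limma's threshold, 40 genes past the size rule, 1 of them among the 9 genes, and 0 and 0 pathway genes, with Bnip3l at 0.05 and Hk2 at -0.08. The number of genes past the limma threshold (238 higher, 153 lower) was 485 and 460 with array weights, 119 and 99 with channel 2 arrays only, 39 and 8 with channel 1 arrays only, and 126 and 49 without arrays 2 and 3, an alternative chosen after seeing the data. Leaving out 1 array gave 92 (without array 5) to 223 higher and 31 (without array 5) to 153 lower. The pathway count of 4 higher and 2 lower became 8 higher with weights, 0 higher with channel 2 only, 0 and 0 with channel 1 only, 0 and 1 without arrays 2 and 3, and 1 to 2 higher and 1 to 2 lower without 1 array. Some named genes passed only in alternatives. Pparg did with scaled arrays (limma adjusted p = 0.0312), with weights (0.038) and among genes with values on all 6 arrays (0.0493). Cavin1 did with weights (limma adjusted p = 0.0441) and with 1 probe per gene (0.0276). Gpd1 (limma adjusted p = 0.0271) and Ddit4 (0.0373) did with weights. The size rule (410 genes) gave 988 and 856 with channel 2 or channel 1 only, 233 genes with values on all 6 arrays (1 of the 9 genes, since only 5 of them have such values), 111 at 2-fold and 826 with natural logs. Fewer arrays entered where arrays or an orientation were left out, and fewer genes where values on all 6 arrays were required. Rows as deposited were read without placement. Weights and scaling kept the same arrays and genes. The 2-fold and natural log counts changed only the threshold or the scale. Causes beyond these were not tested.

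Orientation differences never passed and turned sign in places. With rows as deposited they were 0.34 for Hilpda, -1.01 for Plin2, 0.16 for Cidec and 0.63 for Abhd5. With array weights they were -0.10 for Plin4 and -0.42 for Fabp5. Without arrays 2 and 3 they were -0.24 for Plin4, 0.04 for Cidec and -0.55 for Fabp5. Without 1 array they ranged from -0.68 to 0.03 for Hilpda, -0.46 to 0.59 for Plin2, -0.24 to 0.62 for Plin4, -2.65 to 0.04 for Cidec, -0.26 to 0.03 for Lipe and -0.55 to 0.90 for Fabp5.

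Each value is a ratio of both pools on 1 array, so the fit is within arrays throughout; no further pairing was made, because the orientations share no array numbers.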
